A study of Mus musculus with 6 samples.

Results

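Txnip, which encodes the thioredoxin-interacting protein, was followed in the cortex of mouse embryos that lack the Hippo pathway kinases Lats1 and Lats2, together with 4 other alpha-arrestin genes, 4 genes of the thioredoxin system and the regulator gene Mlxip. These 10 genes were chosen by name around Txnip, and Txnip itself was selected on its difference between the groups in these same arrays, where it fell in every fit that left out 1 array. The differences between groups are therefore given for the 10 genes as descriptions, without p-values. All 10 had a row of the array with 1 gene symbol, out of 22180 genes with such a row, and all 10 passed the filter on dim genes that left 16724 genes for testing.

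Cortex of 3 double knock-out embryos (DKO), of genotype Lats1F/F;Lats2F/F;Nestin-Cre, was set against cortex of 3 control embryos. All were taken at E12.5, untreated, and per the labels each sample came from its own embryo. The labels do not say which alleles the controls carried. Nestin-Cre recombines loxP-flanked alleles in neural progenitors and their descendants. Vessels, blood, microglia and meninges in the same tissue would thus be expected to keep Lats1 and Lats2, but recombination by cell type was not measured here. Values are log2 signals from 1 whole-transcript array per embryo, made by RMA, which scales all arrays to one distribution. A difference of -1 on this scale is a halving of relative signal, and levels of different genes cannot be set against each other because each has its own probes. In whole tissue, fewer cells of a type and less RNA per cell cannot be told apart.

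Alpha-arrestins are adaptor proteins that bring ubiquitin ligases of the NEDD4 family to membrane proteins and so promote their internalization. Txnip is the family member that also binds reduced thioredoxin, and it lowers glucose uptake by promoting the endocytosis of glucose transporters. Thioredoxins are small proteins that reduce disulfides in other proteins, and thioredoxin reductases return them to the reduced state with NADPH. Transcription of Txnip and Arrdc4 is driven by the glucose-sensing factor MondoA, the product of Mlxip, which binds E-box-like carbohydrate response elements together with its partner Mlx.

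The start regions of 3 of the alpha-arrestin genes are shown because Txnip and Arrdc4, both known MondoA targets, were lower in every DKO array, while Arrdc2 had the difference nearest to 0. The sequences are those of RefSeq for assembly GRCm38.p6, from 250 bases before to 50 bases after the annotated start, written 5′ to 3′ on the strand of the gene. Capitals mark E-box-like letters, CACGTG or a pair of half-sites CACGNG separated by 5 bases. The Txnip window is chr3:96557707-96558006 on the plus strand, the Arrdc4 window chr7:68749189-68749488 on the minus strand and the Arrdc2 window chr8:70839671-70839970 on the minus strand.
Txnip: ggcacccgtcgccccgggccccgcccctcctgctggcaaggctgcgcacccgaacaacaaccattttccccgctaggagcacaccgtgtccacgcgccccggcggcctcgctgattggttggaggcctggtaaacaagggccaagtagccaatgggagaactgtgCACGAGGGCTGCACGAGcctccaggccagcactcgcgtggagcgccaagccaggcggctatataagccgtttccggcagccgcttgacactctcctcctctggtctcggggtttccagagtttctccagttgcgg
Arrdc4: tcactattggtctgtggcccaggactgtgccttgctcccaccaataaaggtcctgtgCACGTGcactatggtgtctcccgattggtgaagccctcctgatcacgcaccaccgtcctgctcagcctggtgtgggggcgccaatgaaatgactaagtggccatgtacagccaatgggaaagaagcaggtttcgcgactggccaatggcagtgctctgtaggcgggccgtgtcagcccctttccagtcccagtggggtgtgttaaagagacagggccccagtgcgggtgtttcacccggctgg
Arrdc2: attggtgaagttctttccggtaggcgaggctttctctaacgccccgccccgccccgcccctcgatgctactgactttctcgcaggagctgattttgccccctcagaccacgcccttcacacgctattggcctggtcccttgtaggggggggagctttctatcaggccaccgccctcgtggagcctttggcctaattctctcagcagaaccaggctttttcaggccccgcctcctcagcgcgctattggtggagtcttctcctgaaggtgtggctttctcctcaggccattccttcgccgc

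The pair of half-sites was found in the Txnip window from base -85 to base -69 before the start, as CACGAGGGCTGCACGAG. It was present in 16 of 32851 RefSeq start windows of the same length (0.0487%), and among the 10 genes only in that of Txnip. Both half-sites were searched in the same orientation, so pairs with a reversed half-site were not counted and the share holds for this form alone. A link between these letters and the DKO differences was not tested. CACGTG, which also fits a half-site, was present in 7.15% of all windows and among the 10 genes only in that of Arrdc4. Both strands were searched over the 14 windows that RefSeq lists for the 10 genes. Counts of genes pool all windows of a gene, whereas the shares count each window. CCAAT, the box bound by NF-Y, was in windows of 7 of the 10 genes and in 37.4% of all windows. It had 2 matches in the Txnip window, 6 in the Arrdc4 window and 3 in the Arrdc2 window. GTAAACA, a core bound by FOXO factors, was found in the Txnip window alone of the 10 genes and in 3.65% of all windows. CATTCC, the core bound by TEAD factors, was in the windows of 3 of the 10 genes, Arrdc2, Txn2 and Txnrd2, and in 14.7% of all windows. TGACNNNGC, the antioxidant element bound by NRF2, was in windows of Arrdc4 and Txnrd1 and in 12.4% of all windows. A match is a description of these letters, and the searched windows hold no other part of the genes.

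The targeted genes were read first as a check of the labels. Lats1 averaged 7.79 ± 0.05 in DKO and 8.71 ± 0.33 in control cortex (SD, n = 3 each), and it was called lower, by 0.91 ± 0.14 (SE) on the log2 scale with a limma adjusted p = 0.0189. Lats2 averaged 7.27 ± 0.09 in DKO and 7.03 ± 0.17 in control cortex (SD, n = 3 each), with a difference of 0.24 ± 0.10 (SE). Every DKO array was higher than every control array for Lats2, which was not called (limma adjusted p = 0.285). The sources used here do not say which exons the Lats1 and Lats2 probes cover, so neither signal measures the deletion itself. Of the 16724 genes tested, 288 (1.72%) were called changed at an adjusted p under 0.05, with 228 (1.36%) higher and 60 (0.359%) lower in DKO. The median difference of all tested genes was -0.03, and the array medians lay between 5.94 and 5.97.

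Txnip signals were 7.80, 7.73 and 7.89 in the 3 DKO arrays and 8.39, 8.46 and 8.48 in the 3 control arrays. The groups did not overlap, and the highest DKO array lay 0.51 below the lowest control array. Means were 7.80 ± 0.08 in DKO and 8.45 ± 0.05 in control cortex (SD, n = 3 each), a difference of -0.64 ± 0.07 (SE), so that the DKO signal was 64.1% of the control signal. Only 16 of the 16724 tested genes had a lower difference. The range within a group was 0.16 in DKO and 0.09 in control, both small beside the difference. Leaving out 1 array at a time gave differences from -0.68 without DKO 3 to -0.60 without DKO 2.

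Txnip was the 1 gene of the 10 that was called changed, and 0.359% of all tested genes were called lower. The rule that chose the genes used this contrast, so nothing is read from that count. Of the 10 genes, 3 had every DKO array below every control array, against 13.4% of all tested genes, and 1 had every DKO array above every control array, against 8.22%. The 3 were Txnip, Arrdc4 and Mlxip, and the 1 was Txnrd2. Because Txnip was chosen on this contrast, its place among the 3 is no separate finding, and nothing is read from that count either. A lower mean in DKO was seen for 5 of the 10, beside 60.2% of all tested genes. The median difference of the 10 was 0.02.

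**Figure D1:**
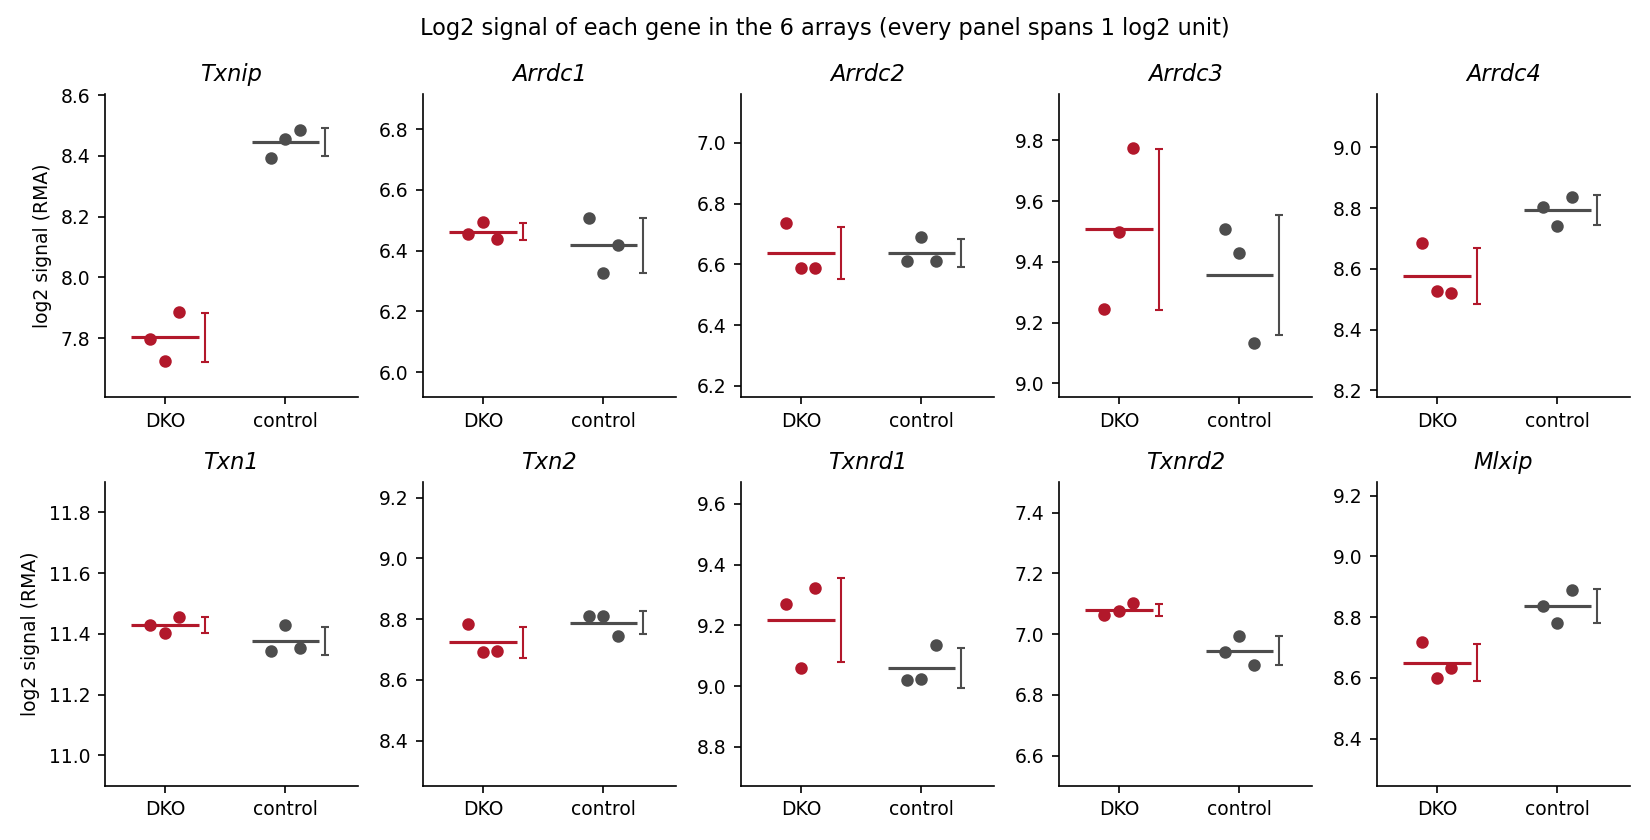
Log2 signal of the 10 genes in 3 DKO arrays (left, red) and 3 control arrays (right, grey), with points for arrays, horizontal lines for group means and bars for 1 SD. Every vertical axis spans 1 log2 unit, so distances can be compared between panels; Txnip shows the gap of 0.51 between groups, while Arrdc3 spreads over 0.53 within the DKO group.

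Arrdc4 is the alpha-arrestin most closely tied to Txnip in its regulation by glucose. Its signals were 8.68, 8.53 and 8.52 in DKO and 8.80, 8.74 and 8.84 in control cortex. The groups did not overlap, but the gap between them was 0.06, and DKO 1 lay nearest to the controls. Its means were 8.58 ± 0.09 in DKO and 8.79 ± 0.05 in control cortex (SD, n = 3 each), with a difference of -0.22 ± 0.07 (SE). The DKO signal of Arrdc4 was 86.0% of the control signal. Over the 6 fits that left out 1 array the difference lay between -0.27 and -0.19.

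Mlxip, the gene of MondoA, is the third of the 10 whose DKO arrays all lay lower. Its signals were 8.72, 8.60 and 8.63 in DKO and 8.84, 8.78 and 8.89 in control cortex. As for Arrdc4, the gap of 0.06 was narrow and set by DKO 1 against control 2. Mlxip averaged 8.65 ± 0.06 in DKO and 8.84 ± 0.06 in control cortex (SD, n = 3 each), a difference of -0.19 ± 0.06 (SE). Leaving out 1 array at a time kept it between -0.22 and -0.16. Differences lower than that of Arrdc4 were seen in 6.34% of all tested genes, and lower than that of Mlxip in 9.32%.

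The other 3 alpha-arrestin genes had overlapping groups. Arrdc3, an adaptor for the internalization of beta-adrenergic receptors, had signals of 9.25, 9.50 and 9.78 in DKO and 9.51, 9.43 and 9.13 in control cortex. It varied most between embryos of 1 group among the 10 genes, with an SD of 0.26 in DKO and 0.20 in controls. Its difference of 0.15 ± 0.14 (SE) was 0.02 without DKO 3, 0.04 without control 3 and 0.28 without DKO 1.

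Arrdc1, which takes part in the budding of vesicles from the plasma membrane, had 6.46, 6.49 and 6.44 in DKO and 6.51, 6.33 and 6.42 in control cortex. The DKO arrays lay inside the range of the controls. The difference of 0.04 ± 0.07 (SE) turned to -0.00061 without control 2. Arrdc2, a further ligase adaptor, had 6.74, 6.59 and 6.59 in DKO and 6.61, 6.69 and 6.61 in control cortex. Its means were equal to 2 decimals, 6.64 ± 0.09 in DKO and 6.64 ± 0.05 in control cortex (SD, n = 3 each), and its difference of -0.00035 ± 0.07 (SE) turned positive when arrays were centred on their median (0.02) or quantile normalization was repeated (0.01), and when DKO 2, DKO 3 or control 2 was left out (up to 0.03).

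**Figure D2:**
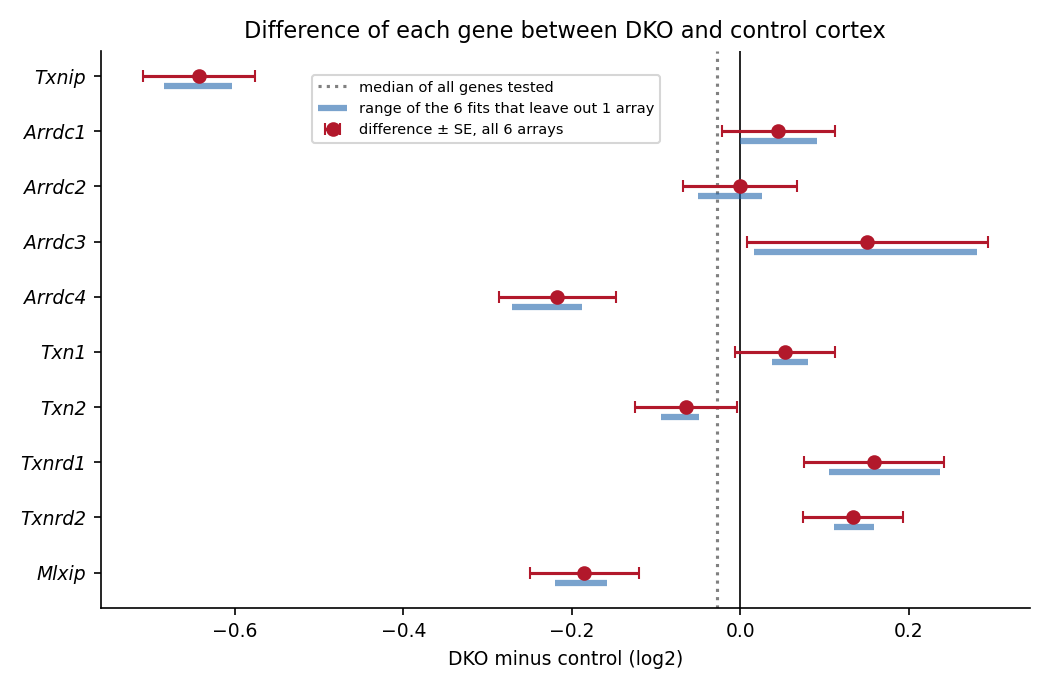
DKO minus control difference of each of the 10 genes on the log2 scale (red points, bars of 1 SE from the limma fit over 6 arrays), with blue bars for the range over the 6 fits that left out 1 array each. Txnip stands at -0.64, the next lowest are Arrdc4 at -0.22 and Mlxip at -0.19, and the other 7 genes lie between -0.06 and 0.16; the dotted line is the median of all tested genes, -0.03.

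The thioredoxins, the redox partners of Txnip, had overlapping groups. Txn1, the cytosolic thioredoxin, had signals of 11.43, 11.40 and 11.46 in DKO and 11.34, 11.43 and 11.35 in control cortex. The groups overlapped through control 2, and the difference was 0.05 ± 0.06 (SE). Txn2, the mitochondrial thioredoxin, had 8.78, 8.69 and 8.70 in DKO and 8.81, 8.81 and 8.75 in control cortex, with a difference of -0.06 ± 0.06 (SE). DKO 1 overlapped the controls there.

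The reductases had higher means in DKO. Txnrd1, the cytosolic thioredoxin reductase and a known NRF2 target, had 9.27, 9.06 and 9.32 in DKO and 9.02, 9.02 and 9.14 in control cortex. DKO 2 lay below control 3, so the groups overlapped, and the difference of 0.16 ± 0.08 (SE) was 0.24 without DKO 2 and 0.11 without DKO 3. Txnrd2, the mitochondrial reductase, had 7.06, 7.07 and 7.10 in DKO and 6.94, 6.99 and 6.90 in control cortex. Its groups did not overlap, with a gap of 0.07, and the DKO arrays were close together, with an SD of 0.02. The difference was 0.13 ± 0.06 (SE), a DKO signal of 109.7% of the control signal.

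Related genes outside the 10 were read from 7 lists, which hold none of the 10 and were tested in the same limma fit. Of 96 listed genes, 89 had a row and 85 were tested; 0 rose, 0 fell and 85 did not pass at an adjusted p under 0.05, beside 1.72% called over all genes. At an unadjusted p under 0.05, 8 were higher and 8 lower in DKO, which is 18.8% of the 85 against 15.6% of all tested genes. With the replicate number as a block 0 were called, and with a trended prior variance 0 were called. Without DKO 2, 3 were called, namely Txndc5, Slc2a3 and Hk2, beside 314 over all tested genes. With a stricter filter on dim genes, which tests fewer genes, 1 was called, Me1, beside 421 over all genes tested there.

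Partners and targets of MondoA and its relative ChREBP were read beside Txnip. Of 11 tested genes 0 passed, 4 had a higher and 7 a lower mean in DKO, and their median difference was -0.05. Mlx, the dimer partner of both factors, averaged 8.33 ± 0.05 in DKO and 8.38 ± 0.03 in control cortex (SD, n = 3 each) (limma adjusted p = 0.741). The smallest p was that of Pklr, a pyruvate kinase gene of liver and blood cells, at -0.18 ± 0.07 (SE, limma adjusted p = 0.292). Thrsp, a lipogenic gene, and Acaca, acetyl-CoA carboxylase, followed at 0.13 ± 0.06 and 0.13 ± 0.06 (SE), with limma adjusted p = 0.346 and 0.398.

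Proteins with a thioredoxin fold held the largest difference of the 3 redox lists. Txndc5, a disulfide isomerase of the endoplasmic reticulum, had signals of 8.48, 8.15 and 8.41 in DKO and 7.91, 8.07 and 7.84 in control cortex. Every DKO array was higher, DKO 2 by the least, and the difference was 0.41 ± 0.10 (SE) with a limma adjusted p = 0.0973. Without DKO 2 it was 0.51 with a limma adjusted p = 0.0326, and the adjusted p reached 0.273 in other settings. Nxn, nucleoredoxin, had a difference of 0.24 ± 0.07 (SE, limma adjusted p = 0.141), and Txndc16 of -0.26 ± 0.08 (SE, limma adjusted p = 0.162). Of 20 tested genes of this list 0 passed, 14 had a higher and 6 a lower mean in DKO, and the median difference was 0.03.

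Clients of thioredoxin, among them peroxiredoxins, methionine sulfoxide reductases and ribonucleotide reductase, had a median difference of -0.03, with 3 of 12 means higher and 9 lower in DKO and 0 past the test. Srxn1, which restores overoxidized peroxiredoxins, had -0.18 ± 0.07 (SE, limma adjusted p = 0.268), Prdx3, the mitochondrial peroxiredoxin, 0.13 ± 0.07 (SE, limma adjusted p = 0.394), and Msrb2 -0.10 ± 0.08 (SE, limma adjusted p = 0.582). Map3k5, the kinase ASK1 that thioredoxin holds inactive, averaged 5.77 ± 0.05 in DKO and 5.76 ± 0.06 in control cortex (SD, n = 3 each); it was named after its value was seen, as was Mlx.

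The NRF2 programme, the transcriptional response to oxidants, showed 0 calls among 11 tested genes, with 4 means higher and 7 lower and a median of -0.03. Me1, malic enzyme and a source of NADPH, had 6.60, 6.60 and 6.40 in DKO and 6.21, 6.11 and 6.24 in control cortex. Its groups did not overlap, and the difference was 0.35 ± 0.08 (SE, limma adjusted p = 0.0700). Nfe2l2, the gene of NRF2 itself, had -0.21 ± 0.08 (SE, limma adjusted p = 0.268), and Osgin1, a target of NRF2, -0.16 ± 0.07 (SE, limma adjusted p = 0.299). Txnrd1, Me1 and Nfe2l2 thus had differences of unlike sign, and none of the 3 was called.

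Other genes with an arrestin fold had 6 of 7 means lower in DKO, a median of -0.08 and 0 calls. Arrb1, beta-arrestin 1, had -0.21 ± 0.07 (SE, limma adjusted p = 0.193), and the retromer subunit genes Vps26b and Vps26a had -0.14 ± 0.08 and -0.13 ± 0.08 (SE), with limma adjusted p = 0.436 and 0.484. Among 12 ligases of the NEDD4 family and their adaptors, 4 means were higher and 8 lower, with a median of -0.02 and 0 calls. Nedd4l, a ligase of ion channels and transporters, had signals of 9.51, 9.66 and 9.58 in DKO and 9.93, 9.70 and 10.10 in control cortex. All DKO arrays were lower, but control 2 stood close to them, and the difference was -0.33 ± 0.10 (SE, limma adjusted p = 0.175). Wwp1 and Hecw2 had 0.12 ± 0.06 and 0.10 ± 0.06 (SE), with limma adjusted p = 0.401 and 0.506.

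Genes of glucose uptake and entry were examined because Txnip acts on glucose transporters. Slc2a3, the neuronal transporter GLUT3, had signals of 8.02, 7.27 and 7.63 in DKO and 6.85, 7.26 and 6.98 in control cortex. All DKO arrays were higher, although DKO 2 and control 2 differed by little. The difference was 0.61 ± 0.18 (SE, limma adjusted p = 0.149), and without DKO 2 it was 0.79 with a limma adjusted p = 0.0456. In other settings the limma adjusted p of Slc2a3 reached 0.371. Hk2, a hexokinase, had 0.31 ± 0.08 (SE, limma adjusted p = 0.115), or 0.39 with a limma adjusted p = 0.0454 without DKO 2. Its limma adjusted p reached 0.271 in other settings. Pgd, of the pentose phosphate pathway, had 0.19 ± 0.06 (SE, limma adjusted p = 0.181). The groups of Slc2a1, a further glucose transporter gene named after its value was seen, overlapped. Its difference was 0.15 ± 0.12 (SE, limma adjusted p = 0.625). The list as a whole split evenly, with 6 of 12 means higher and 6 lower in DKO and a median of -0.03.

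**Figure D3:**
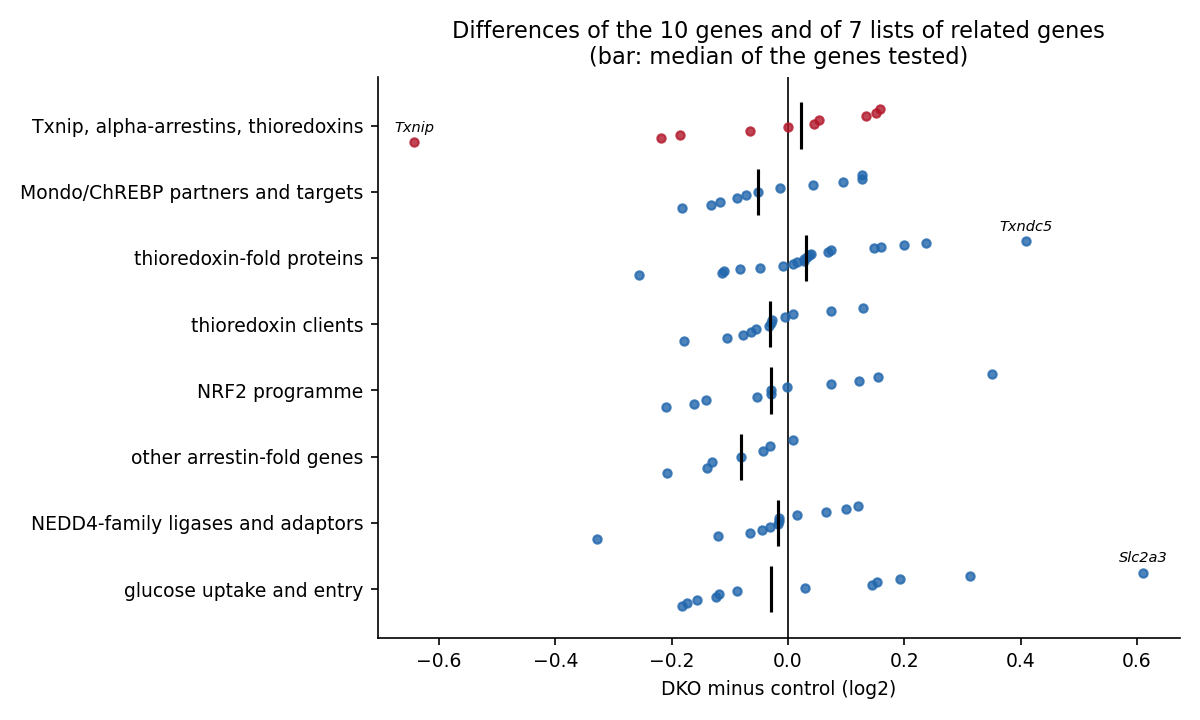
DKO minus control difference (log2, horizontal axis) of each tested gene in 7 lists of related genes (blue) and of the 10 genes themselves (red, top row), with black bars for the median of each row. The list medians lie between -0.08 and 0.03; Txnip at -0.64 lies below every other gene shown, and Slc2a3 at 0.61 above every other.

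The 5 tested genes with the profile nearest to Txnip were Slc16a14, Ptpru, AW047730, Mfng and C030018K13Rik. Likeness was the root mean square difference over the 6 arrays after each gene's own mean was subtracted, and it was 0.07 for Slc16a14 and Ptpru, and 0.10 for AW047730, Mfng and C030018K13Rik. The root mean square deviation of Txnip from its own mean was 0.33. Slc16a14 belongs to the monocarboxylate transporter family, Ptpru encodes a receptor tyrosine phosphatase and Mfng a glycosyltransferase of Notch receptors. Slc16a14 had signals of 6.64, 6.57 and 6.84 in DKO and 7.17, 7.27 and 7.45 in control cortex, and Ptpru 7.53, 7.36 and 7.61 in DKO and 8.19, 8.05 and 8.25 in control cortex. In Txnip, Slc16a14 and Ptpru alike, DKO 2 was the lowest array and DKO 3 the highest of the DKO group. Of the control arrays, control 1 was the lowest in Txnip and Slc16a14, and control 2 in Ptpru. These genes were picked for their likeness to Txnip over the same arrays, so their differences are not tested here and nothing is read from a shared order of arrays.

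**Figure D4:**
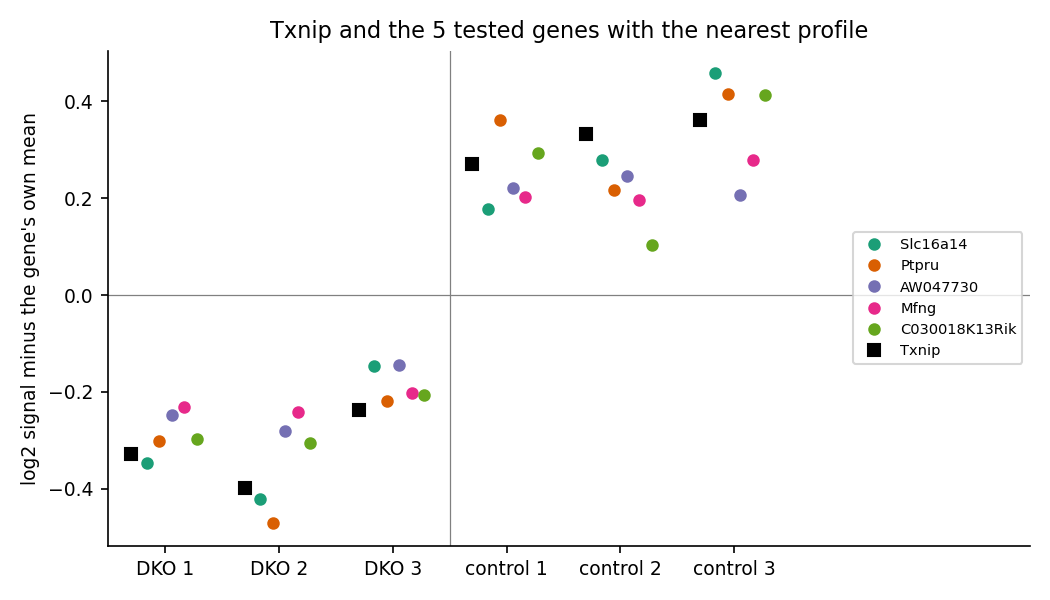
Log2 signal minus each gene's own mean over the 6 arrays (vertical axis) for Txnip (black squares) and the 5 tested genes with the nearest profile (coloured points), for DKO arrays at left and control arrays at right. All 6 genes lie below 0 in every DKO array and above 0 in every control array.

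Markers of the tissue and of other cell types were read in the same arrays. Of 9 markers of the dorsal telencephalon 8 had a row, all above the limit for dim genes, and their summed linear signal was 10244 to 10762 in DKO and 10612 to 10820 in control arrays. Such a sum mostly follows the rows with the strongest signal, so it is no measure of the amount of a cell type. The strongest row of this list was that of Fabp7, with means of 12.29 in DKO and 12.32 in control cortex. Of these 8, 3 had a higher and 5 a lower mean in DKO, and 0 passed the test, or 1 with a trended prior variance. Every DKO array was lower for 3 of the 8, against 13.4% of all tested genes. These were Emx1, Emx2 and Lhx2, transcription factors of the cortex, with differences of -0.30 ± 0.07, -0.18 ± 0.06 and -0.17 ± 0.06 (SE). Every DKO array was higher for 2 of the 8, against 8.22% of all tested genes. These were Hes1, a Notch target, and Nes, the progenitor filament nestin, with differences of 0.37 ± 0.10 and 0.24 ± 0.06 (SE). The groups overlapped for Pax6, Sox2 and Fabp7, with differences of -0.07 ± 0.08, 0.07 ± 0.08 and -0.03 ± 0.06 (SE). All 7 markers of neurons and intermediate progenitors had lower means in DKO, and their summed signal was 7402 to 8241 in DKO against 8922 to 9168 in control arrays. The groups did not overlap in this sum, which moved in the same direction as Txnip, and its part in the difference of Txnip was not tested.

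All 8 endothelial markers also had lower means in DKO, with a summed signal of 1251 to 1902 in DKO and 1870 to 2130 in control arrays and 0 calls. DKO 2 was the lowest DKO array for all 8 endothelial and all 6 meningeal markers. It was also the lowest for 5 of the 10 genes, Txnip among them, and for 8639 of all 22180 genes. Without DKO 2 the difference of Txnip was -0.60, against -0.64 over all arrays. Each of the 7 hem or choroid plexus markers was higher on average in DKO, with a summed signal of 744 to 1799 in DKO and 419 to 551 in control arrays. Ttr had the strongest signal of the 7 in every array, with 10.25 in DKO 2. Of these 7, 2 were called higher, Ttr and Lmx1a, beside 1.36% of all tested genes, and 0 were called without DKO 1, without control 1 or without control 3. Microglial markers summed to 377 to 435 in DKO and 385 to 438 in control arrays, and 2 of the 5, Aif1 and Ptprc, lay below the limit for dim genes. Meningeal markers summed to 825 to 1993 in DKO and 1274 to 1580 in control arrays. The 2 erythroid markers with a row summed to 4214 to 5321 in DKO and 5379 to 5566 in control arrays. This sum mostly follows Hbb-y, which was lower in every DKO array. The groups of Hbb-bh1 overlapped, with 8.48, 6.99 and 8.21 in DKO and 8.07, 8.16 and 7.74 in control arrays. The part of the marker sums in the values of the 10 genes was not tested.

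**Figure D5:**
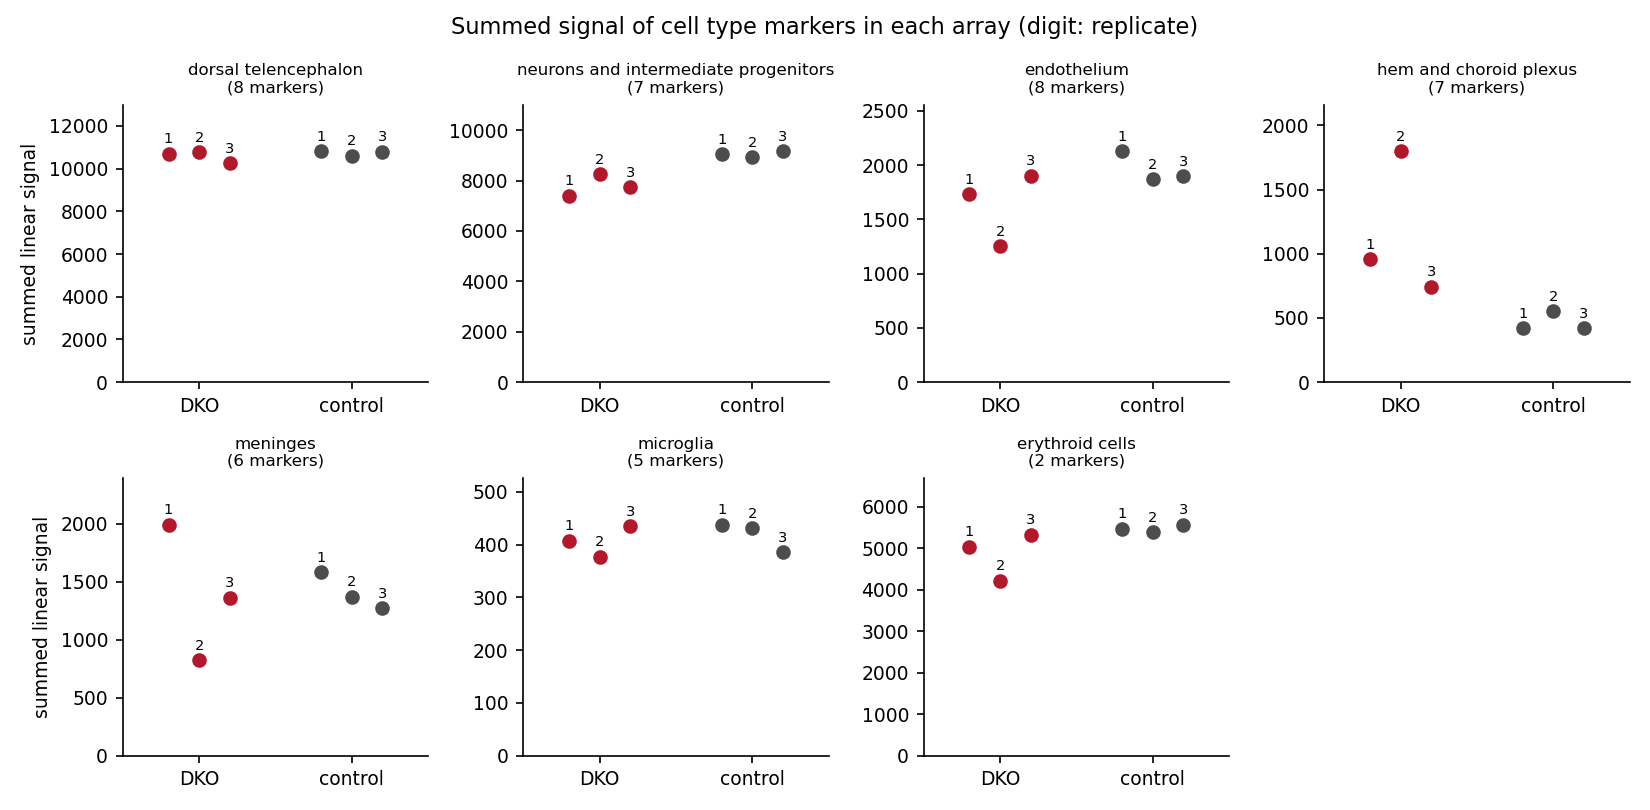
Summed linear signal (vertical axis, from 0) of the markers of 7 tissues or cell types in each array, with DKO at left (red), control at right (grey) and the replicate number beside each point. Each sum mostly follows its markers with the strongest signal. Neuronal sums lie lower in all 3 DKO arrays (at most 8241, against at least 8922 in control), hem and choroid plexus sums lie higher, and DKO 2 has the lowest endothelial, meningeal and erythroid sums.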

How the data were processed

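Total RNA of 6 embryonic cortices, 3 DKO and 3 control, was extracted with Trizol, converted to sense-strand cDNA and hybridised after biotin labelling, per the labels' protocols. The authors deposited log2 signals; per the submitters' processing notes RMA produced them. The version of RMA and the genome build of the probes are not given in the sources used here, and scanner files were not used here. The method equalises the arrays, so the log2 values of the authors carry no change of total RNA per cell. The table held 41345 rows, of which 23521 had 1 gene symbol in the platform annotation, 1814 had several and 16010 are unnamed here. For each of 22180 genes the row with the highest mean over the 6 arrays was used, and the 5456 genes with a mean under the 25th percentile of one-symbol rows (5.02) were not tested. DKO and control were compared with limma 3.58.1 in R 4.3.3 (lmFit, eBayes, two-sided, no covariate) with Benjamini-Hochberg adjustment over 16724 genes and a threshold of 0.05. The fit had 4 residual and 4.44 prior degrees of freedom and a median residual SD of 0.095. The number of arrays, 3 per group, limits precision.

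The 10 genes and the lists were chosen with earlier results of these data known. Named beside the 10 were Lats1 and Lats2, the 3 genes with the smallest p of each list, the 5 profiles nearest to Txnip and defining markers. All markers named by symbol were picked after their values were seen. Start windows were searched as text with Python 3.11.15. The code was tested on simulated data with known answers. The 14 alternatives were filters, variance models, scaling, the row rule, the replicate number as a block and each array left out. No pair of arrays held the same values (correlations 0.978 to 0.994).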

Additional observations from a re-analysis of the deposited data

How the results depend on the processing

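The 10 differences were recomputed under 14 alternatives, and all 140 values stayed within 1 SD of the replicates of the value reported. Arrdc1 and Arrdc2 changed sign as given. Most of these values could not have left that limit, so nothing is read from the count. The filters, variance models, row rule and replicate block leave a member's difference unchanged by construction. Leaving out 1 of 3 arrays cannot move it by 1 SD. Only the 2 changes of scaling could have done so. Txnip differences lay between -0.68 and -0.60; since Txnip was chosen for falling in each fit with 1 array left out, this range is a description and no sign of stability. The count of changed genes was 485 with a trended prior variance, and from 134 (without control 3) to 314 (without DKO 2) with 1 array left out; it was 145 without DKO 1, 144 without DKO 3 and 148 without control 1, in fits with fewer samples. Genes lower in DKO, 60 as reported, numbered 162 with a trended variance and 134 with a stricter filter, and from 11 (without control 1) to 54 (without DKO 2) with 1 array left out. Genes higher in DKO, 228 as reported, numbered from 121 (without control 3) to 260 (without DKO 2) with 1 array left out, and up to 323 (trended variance) under the other alternatives. Listed related genes called numbered 1 with the stricter filter and from 0 to 3 with 1 array left out. With the replicate block 200 genes were changed, 24 of them lower. The block cannot alter the Txnip difference of -0.64, because each replicate number holds 1 DKO and 1 control array. The labels do not tie replicate numbers to litters, deviations of same-numbered arrays correlated at -0.10, 0.21 and 0.15, and DKO 1 and DKO 3 correlated best with another number. The cause of these shifts was not tested. No detection call was at hand, so signal over background limits dim genes.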

Other observations

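A further row of the array is annotated to both Txnip and Gm15441 and cannot be assigned to either gene. Its signals were 5.97, 5.69 and 5.86 in DKO and 5.87, 5.85 and 5.87 in control arrays, a difference of -0.03, and its groups overlapped. It was not used in any comparison.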
